A study of Mus musculus with 4 samples.

Results

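The leptin receptor gene Lepr and 6 genes of marrow niche factors (Cxcl12, Kitl, Vcam1, Csf1, Il7 and Angpt1) were followed in mouse skeletal stem cells with and without Mmp14. They were taken by gene symbol from the deposited log2 value table, using probe sets annotated to exactly 1 gene. All 7 genes were on the array, with 8 of the 41345 probe sets, among 22180 genes with such a probe set. The cells came from mice aged 4 to 6 weeks, either Mmp14+/+ (wild type) or Mmp14-/- (Mmp14 knockout), and both groups had been embedded in 3D collagen gel and kept there for 48 h before RNA was harvested. Mmp14 encodes MT1-MMP, a membrane-anchored protease that cleaves collagen, and the study compared the genotypes to screen for transcriptional changes. There were 4 Affymetrix arrays, 2 per genotype. The deleted part of Mmp14 and the sorting of the stem cells are not described in the labels. Nor is it stated whether the replicates were separate mice or cultures, so each p-value reflects the spread among these 4 samples alone, and that spread could be technical.

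In adult bone marrow, stromal cells around blood vessels that carry the leptin receptor are a main source of the signals that hold blood-forming cells in place. The chemokine CXCL12 retains stem and progenitor cells through its receptor CXCR4, stem cell factor (Kitl) acts on the receptor KIT, and VCAM1 is a surface adhesion molecule bound by integrin α4β1. Macrophage colony-stimulating factor (Csf1) maintains macrophages and osteoclast precursors, interleukin 7 (Il7) feeds lymphoid progenitors, and angiopoietin 1 (Angpt1) activates the receptor TIE2 on endothelium and stem cells.

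The 4 of the 7 genes that passed the test moved in both directions. In knockout cells Lepr fell 4.80-fold, whereas Cxcl12 rose 3.50-fold, Vcam1 3.15-fold and Csf1 1.48-fold (n = 2 per group). Kitl and Angpt1 did not pass the test, and Il7 was too dim to be tested. A gene was called when its limma p-value, adjusted by Benjamini and Hochberg over all 12708 genes tested, was below 0.05. Genes were tested when their mean over the 4 arrays reached 2.34 log2, the median of all probe sets, and 6 of the 7 genes did so. The groups did not overlap for 4 of these 6, as for 57.8% of all tested genes. Of the 6, 3 were called higher, 1 lower and 2 were not called, where 11.3% of all tested genes were called, 6.2% as higher and 5.12% as lower. The median knockout minus wild type difference of the 6 was 0.40 log2, against −0.0041 over all tested genes. The genes were chosen with earlier results of these data known, so these counts describe them and do not set them apart.

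**Figure D1:**
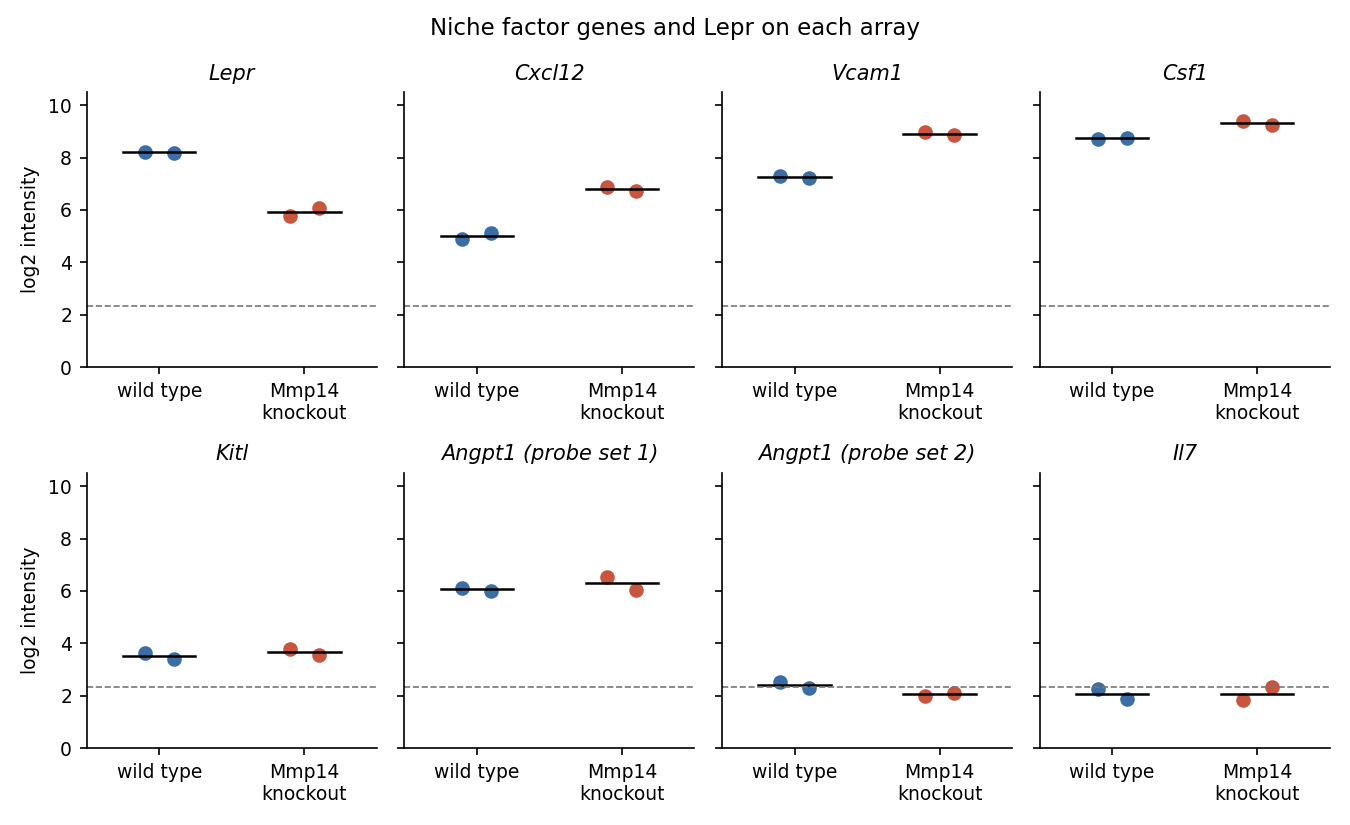
Deposited log2 intensity (vertical axis) of the 8 probe sets on each array, wild type in blue and Mmp14 knockout in red, with the group mean as a black bar and the 2.34 log2 limit for testing as a dashed line. Lepr was lower, and Cxcl12, Vcam1 and Csf1 were higher, on both knockout arrays than on either wild-type array, and the groups overlapped for Kitl, Il7 and the brighter Angpt1 probe set.

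Mmp14 was measured at 8.77 and 8.83 log2 in wild type and at 5.77 and 5.84 in knockout, a fall of 2.99 log2 (SE 0.103, limma adjusted p = 0.000278), in the direction the genotype labels give. Most blood and endothelial genes were near the floor of the array. Of 15 macrophage and leukocyte markers 10 were too dim to be tested and none of the other 5 was called, with a summed linear intensity of 101 and 90.5 in the wild-type arrays against 82.6 and 91.0 in the knockout arrays. Ptprc, the pan-leukocyte marker CD45, ran from 1.51 to 1.86 log2. Of 12 endothelial markers 10 were too dim, among them Pecam1 and Cdh5, and the transcription factor gene Erg was the only one called. Erg rose by 0.99 log2 from 6.12, and the list's summed intensity was 113 and 111 in the wild-type arrays against 184 and 180 in the knockout arrays. Without Erg the other 11 summed to 40.7 and 44.1 against 44.6 and 42.3. Of 11 measured skeletal stem cell surface markers all were tested, and 54.5% were called, against 11.3% over all tested genes. The called markers were 4 higher (Cd200, Enpep, Nt5e and Pdgfra) and 2 lower (Pdpn and Cd44). Cd200 was at 2.72 and 2.96 log2 in wild type, close to the limit for testing, and at 3.89 and 4.71 in knockout. Its call did not hold with either wild-type array left out. Neither Pdpn (limma adjusted p = 0.0659 to 0.132) nor Cd44 was called lower with any 1 array left out. These markers lie in the same arrays as the niche genes, and their part in the results below was not tested. In bulk RNA, fewer cells of a type and less RNA per cell cannot be told apart. Genes that track the sex of the mice differed too. Xist, the RNA that coats the inactive X chromosome, rose from 8.45 and 8.48 log2 in the wild-type arrays to 9.30 and 9.09 in the knockout arrays, and the Y-linked Eif2s3y fell by 0.69 log2 (limma adjusted p = 0.0155 and 0.0474). Their part in the results was not tested.

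Sequences just before the transcription start are shown for the 3 called genes that the RefSeq promoter table held, since Cxcl12 and Csf1 rose while Lepr fell. The table (GRCm38.p6) matched 4 of the 7 genes. The 250 bases before each start were searched on both strands for 9 motifs, and matches are in capitals. The motifs were the GC box GGGCGG, the CCAAT box CCAAT, the TATA box TATAAA, the hypoxia response element core ACGTG, the TCF/LEF motif ATCAAAG, and the STAT (TTCNNNGAA), EBF (CCCNNGGG) and AP-1 (TGANTCA) motifs, and the NF-kB motif.
Cxcl12 (chr6:117168285-117168534, plus strand): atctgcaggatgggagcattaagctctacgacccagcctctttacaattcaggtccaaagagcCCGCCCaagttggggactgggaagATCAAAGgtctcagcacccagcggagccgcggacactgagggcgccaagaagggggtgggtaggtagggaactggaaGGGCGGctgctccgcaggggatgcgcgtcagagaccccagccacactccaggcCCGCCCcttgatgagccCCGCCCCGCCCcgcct
Csf1 (chr3:107760470-107760719, minus strand): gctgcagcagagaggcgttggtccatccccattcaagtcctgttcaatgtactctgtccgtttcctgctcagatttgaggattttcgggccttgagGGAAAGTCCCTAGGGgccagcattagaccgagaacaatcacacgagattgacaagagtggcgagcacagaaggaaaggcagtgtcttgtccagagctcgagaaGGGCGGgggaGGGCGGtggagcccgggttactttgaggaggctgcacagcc
Lepr, upstream start (chr4:101717157-101717406, plus strand): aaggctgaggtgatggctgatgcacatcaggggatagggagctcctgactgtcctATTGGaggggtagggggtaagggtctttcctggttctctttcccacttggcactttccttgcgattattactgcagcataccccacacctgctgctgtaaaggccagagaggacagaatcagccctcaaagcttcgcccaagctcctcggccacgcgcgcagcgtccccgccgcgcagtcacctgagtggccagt
Lepr, downstream start (chr4:101717656-101717905, plus strand): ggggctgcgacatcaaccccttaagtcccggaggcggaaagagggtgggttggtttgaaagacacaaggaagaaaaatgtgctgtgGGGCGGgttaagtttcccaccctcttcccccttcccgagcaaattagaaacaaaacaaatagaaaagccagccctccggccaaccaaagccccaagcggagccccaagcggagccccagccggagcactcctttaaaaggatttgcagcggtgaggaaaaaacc
In the Cxcl12 window the GC box matched 5 times, and the 2 copies nearest the start share 1 base. A GC box is found in 32.7% of the 32851 promoter windows of this length. The same window held a TCF/LEF match from 163 to 157 bases before the start, a motif in 3.21% of the windows. The Csf1 window held 2 GC boxes, an NF-kB match from 154 to 145 bases before the start (0.98% of the windows) and an EBF match that overlaps it (11.8%). The upstream Lepr window held 1 CCAAT box (33.8% of the windows), and the downstream one 1 GC box. The hypoxia core, found in 16.6% of the windows, was not among these letters in any of the 4. A match is a description of the sequence, and a missing one says only that these letters are not in this window.

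Lepr encodes the receptor for the fat-derived hormone leptin and serves as a marker of perivascular marrow stroma. Its log2 intensity was 8.20 and 8.19 in the wild-type arrays and 5.77 and 6.09 in the knockout arrays. The wild-type arrays lay within 0.014 log2 of each other, the knockout arrays were 0.32 apart, and a gap of 2.09 log2 separated the groups. The fall was 2.26 log2 (SE 0.136, 2 arrays a group, limma adjusted p = 0.000995), or 4.80-fold with a 95% interval from 3.81 to 6.04, which left 20.8% of the wild-type level. It ranked 20 among the decreases of the 12708 tested genes. Leaving out any 1 array gave falls between 2.10 and 2.42 log2, all called (limma adjusted p = 0.000551 to 0.00523). Lepr had 1 probe set, so the long, signalling form of the receptor and its short forms cannot be told apart.

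Leprot, the neighbouring gene, encodes a small membrane protein that affects how much leptin receptor reaches the cell surface. It was at 9.30 and 9.33 log2 in wild type and 9.03 and 9.09 in knockout. Its values did not overlap between the groups, but the difference of −0.25 log2 was not called (95% interval −0.50 to −0.0069, limma adjusted p = 0.172). Its paralogue Leprotl1 stood at −0.40 log2 and was not called either (limma adjusted p = 0.0889). With trended, robust variances both were called (limma adjusted p = 0.0373 for Leprot and 0.0184 for Leprotl1). Lep, the gene of the hormone itself, was below the limit for testing on every array, between 1.93 and 2.10 log2. The gene on the other side of Lepr, Pramel17, was also too dim to be tested.

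Leptin receptor signalling was followed in a list of JAK-STAT genes, their inhibitors and insulin receptor substrate pathway genes. Of its 15 tested genes 1 was higher, 0 lower and 14 not called (6.67% called, against 11.3% over all tested genes), with a median difference of 0.0063 log2. The called gene was Socs3, a feedback inhibitor of the leptin receptor and of other cytokine receptors. Socs3 was at 3.78 and 4.13 log2 in wild type and 5.11 and 4.97 in knockout, a rise of 1.08 log2 (SE 0.146, limma adjusted p = 0.00912). A second, dim Socs3 probe set (mean 1.82 log2) gave 0.19. The kinase gene Jak2 stood at −0.32, and the transcription factor genes Stat3 and Stat5a at 0.14 and 0.36, without a call.

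Cxcl12 encodes the chemokine that keeps blood stem cells in the marrow. Its log2 intensity was 4.87 and 5.11 in the wild-type arrays and 6.88 and 6.72 in the knockout arrays. Both knockout arrays lay at least 1.61 log2 above both wild-type arrays, against gaps of 0.24 and 0.16 between replicates. The rise was 1.81 log2 (SE 0.129, 2 arrays a group, limma adjusted p = 0.00133), or 3.50-fold with a 95% interval from 2.81 to 4.36. It ranked 68 among the increases, and leaving out any 1 array gave rises of 1.69 to 1.93 log2, all called (limma adjusted p = 0.00169 to 0.00591). Of the genes beside it, Tmem72 was too dim to be tested and Zfp637 was not called (0.22 log2, limma adjusted p = 0.300).

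Of the receptors of CXCL12, Ackr3 fell and Cxcr4 was not called. Ackr3, a scavenging receptor that removes the chemokine, was at 5.03 and 5.18 log2 in wild type and 4.40 and 4.39 in knockout. It fell by 0.71 log2 (SE 0.109, limma adjusted p = 0.0134). The call was lost without Mmp14 knockout replicate 1 (limma adjusted p = 0.0592) or replicate 2 (0.0529). Cxcr4, the signalling receptor, was at 4.68 and 5.16 log2 in wild type and 4.41 and 4.38 in knockout. Its groups did not overlap, the difference was −0.52 log2 (95% interval −0.94 to −0.11), and it was not called (limma adjusted p = 0.110), although it was without wild type replicate 1 (−0.76 log2, limma adjusted p = 0.0279).

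Vcam1 encodes an adhesion molecule that anchors blood-forming cells to stroma. Its log2 intensity was 7.29 and 7.22 in the wild-type arrays, against 8.96 and 8.86 in the knockout arrays. Replicates lay within 0.092 log2 of each other and the groups were 1.58 log2 apart. Vcam1 rose by 1.65 log2 (SE 0.104, 2 arrays a group, limma adjusted p = 0.00104), or 3.15-fold with a 95% interval from 2.64 to 3.76, and ranked 83 among the increases. Leaving out any 1 array gave rises of 1.61 to 1.70 log2, all called. Of its integrin receptor, the β1 chain gene Itgb1 was at 10.2 to 10.3 log2 on all arrays with a difference of −0.042 and no call, and the α4 chain gene Itga4 was below the limit for testing, between 1.90 and 2.10. Itgb7, whose product also pairs with α4, stood at −0.28 and was not called. The neighbouring gene Extl2 had a difference of 0.13 and no call.

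Vcam1 was set beside other adhesion molecules. Of 11 tested genes of this list 4 were higher, 2 lower and 5 not called (54.5% called, against 11.3% over all tested genes, median 0.12 log2). The junction protein gene Jam2 rose by 1.05 log2, and the cadherin genes Cdh2 and Cdh11, which join mesenchymal cells, rose by 0.75 and 0.73. Mcam, the CD146 antigen of perivascular cells, rose by 0.69. The neural cell adhesion molecule gene Ncam1 fell by 0.81 log2, and Cd44, a hyaluronan receptor, fell by 0.45. Fibronectin (Fn1), another ligand of integrin α4β1, was at −0.12 and not called. Without Mmp14 knockout replicate 1 the calls of Cdh2 (limma adjusted p = 0.0548), Cdh11 (0.0592) and Mcam (0.0801) were lost, leaving 1 gene higher. Cd44 was not called on leaving out any 1 array (limma adjusted p = 0.0709 to 0.185).

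Csf1 encodes the main growth factor of macrophages. Its log2 intensity was 8.72 and 8.76 in the wild-type arrays, against 9.38 and 9.23 in the knockout arrays. The groups did not overlap and were 0.48 log2 apart, against a gap of 0.15 between the knockout replicates. Csf1 rose by 0.56 log2 (SE 0.108, 2 arrays a group, limma adjusted p = 0.0262), or 1.48-fold with a 95% interval from 1.23 to 1.78, and ranked 765 among the increases. Its difference stayed between 0.49 and 0.64 log2 on leaving out any 1 array, but none of these 4 fits called it (limma adjusted p = 0.0621 to 0.148). Il34, the other ligand of the same receptor, was at 4.61 and 4.50 log2 in wild type and 4.03 and 4.20 in knockout. Its difference of −0.44 log2 had the opposite sign to that of Csf1 and was not called (limma adjusted p = 0.0617). The receptor gene Csf1r, a macrophage gene, lay between 2.37 and 2.77 log2, close to the limit for testing, with overlapping groups and a difference of 0.0079 log2 that changed sign under quantile normalization and median centring. The gene before Csf1 on its chromosome, Ahcyl1, rose by 0.54 log2 (limma adjusted p = 0.0279), and its call was also lost on leaving out any 1 array (limma adjusted p = 0.0695 to 0.156).

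**Figure D2:**
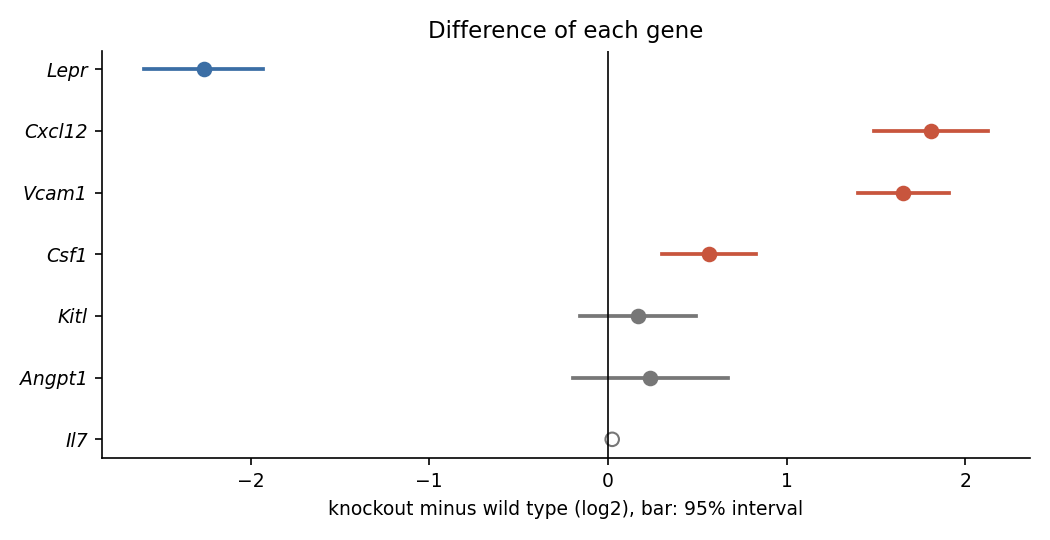
Knockout minus wild type difference on the log2 scale (horizontal axis) of each gene, as a point with its 95% limma interval as a bar, red for called higher, blue for called lower, grey for not called and open for not tested. The intervals of Lepr, Cxcl12, Vcam1 and Csf1 lie away from 0, and those of Kitl (−0.15 to 0.49) and Angpt1 (−0.20 to 0.67) include it.

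Kitl encodes stem cell factor, made by marrow stroma in a membrane-bound and a released form. It was at 3.62 and 3.40 log2 in wild type and at 3.78 and 3.57 in knockout. The lower knockout array lay below the higher wild-type array, so the groups overlapped. The difference was 0.17 log2 (SE 0.132, 2 arrays a group, limma adjusted p = 0.467), with a 95% interval from −0.15 to 0.49, which reaches from 0.898 to 1.41 times the wild-type level. A change of the size seen for Cxcl12 or Vcam1 lies outside this interval. Its receptor gene Kit was too dim to be tested, between 1.90 and 2.41 log2.

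Angpt1 had 2 probe sets that differed in sign. The brighter was at 6.10 and 6.01 log2 in wild type and 6.54 and 6.04 in knockout. The knockout replicates were 0.50 log2 apart and the lower of them lay between the wild-type values. The difference was 0.24 log2 (SE 0.178, 2 arrays a group, limma adjusted p = 0.444, 95% interval −0.20 to 0.67). It turned to −0.012 without Mmp14 knockout replicate 1. The dimmer probe set, with a mean of 2.23 log2 below the limit for testing, gave wild-type values of 2.54 and 2.28 and knockout values of 1.99 and 2.11, a difference of −0.36. The receptor gene Tek (TIE2) and its relative Tie1 were too dim to be tested, and the antagonist ligand gene Angpt2 stood at 0.23 log2 without a call. The gene after Angpt1 on its chromosome, the R-spondin gene Rspo2, rose by 2.29 log2 (limma adjusted p = 0.00300).

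Il7 encodes the cytokine that lymphoid progenitors need. It was at 2.26 and 1.86 log2 in wild type and at 1.83 and 2.34 in knockout. Its mean of 2.07 lay below the limit for testing, the groups overlapped, and the difference of 0.024 log2 was smaller than the gaps between replicates (0.40 and 0.50). Signal this dim says little about whether Il7 was expressed. The receptor gene Il7r lay between 1.44 and 1.48 log2. Tslp, the gene of a related cytokine, lay between 2.38 and 2.50 log2, close to the limit for testing, with a difference of −0.07 and no call.

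Across the receptors and partners of the 7 genes, 17 were measured, 7 of them too dim to be tested. Of the 10 tested, 0 were higher, 1 (Ackr3) was lower and 9 were not called, with a median of −0.27 log2. The share called, 10%, was close to the 11.3% of all tested genes. Ackr3 and Cxcr4 were both called without wild type replicate 1, and neither without either knockout replicate.

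**Figure D3:**
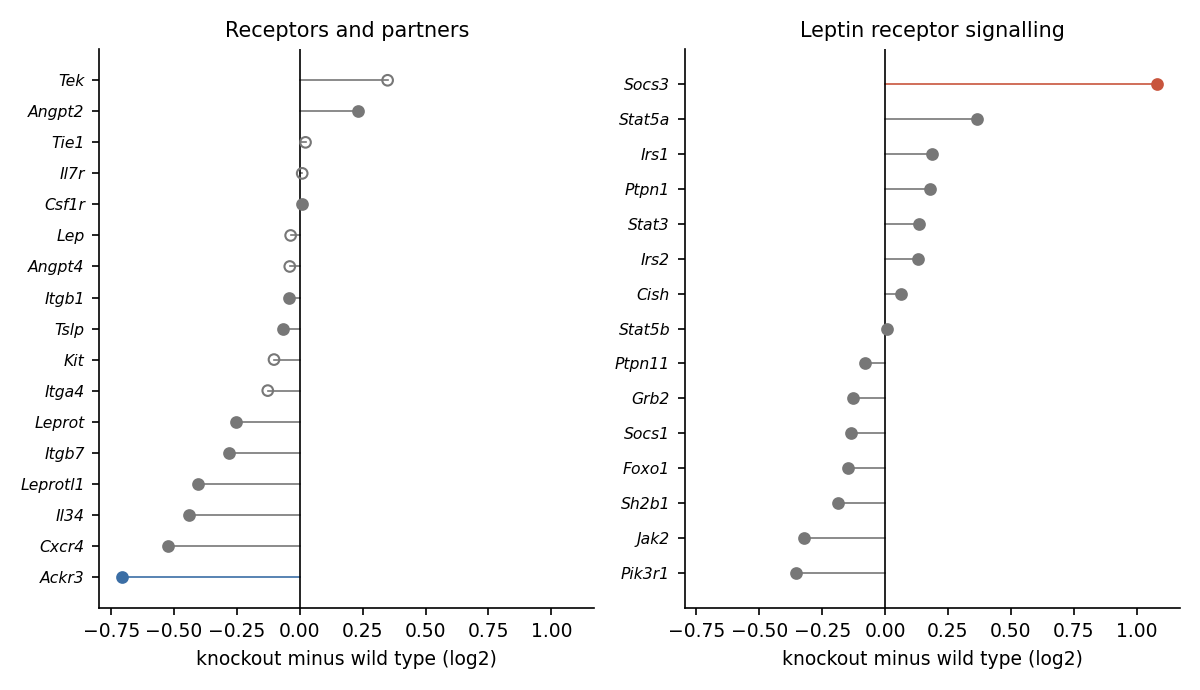
Knockout minus wild type difference on the log2 scale (horizontal axis) for the receptors and partners of the 7 genes (left) and for leptin receptor signalling genes (right), red for called higher, blue for called lower, grey for not called and open for too dim to be tested. Ackr3 at −0.71 is the only called gene on the left and Socs3 at 1.08 the only called gene on the right.

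Other genes of marrow stroma were compared from a list of transcription factors and markers. Of 29 tested genes 12 were higher, 1 lower and 16 not called, a share called of 44.8% against 11.3% over all tested genes, with a median of 0.35 log2. Pparg, the regulator of fat cell formation that is active in leptin receptor-positive stroma, was at 4.23 and 4.73 log2 in wild type and 6.84 and 6.74 in knockout and rose by 2.31 log2 (SE 0.177, limma adjusted p = 0.00158). Klf15, another factor linked to fat cells, rose to 4.35 and 4.17 log2 from wild-type values of 2.34 and 2.36, close to the limit for testing, so no fold is given for it. The receptor gene Pdgfra, a marker of mesenchymal progenitors, rose by 1.77 log2, the surface marker gene Cd200 by 1.46 and Gas6, a secreted ligand of TAM receptors, by 1.19. Sp7 (osterix), a transcription factor that osteoblasts need, was at 6.92 and 7.32 log2 in wild type and 3.68 and 4.39 in knockout and fell by 3.08 log2 (SE 0.257, limma adjusted p = 0.00200). Ebf3 and Foxc1, transcription factors that maintain Cxcl12-rich marrow stroma, stood at 0.10 and −0.28 and were not called. Ebf1, the paralogue of Ebf3 that acts in the same stroma, rose by 0.69 log2 (limma adjusted p = 0.0134, and 0.0749 without Mmp14 knockout replicate 1). It was named after its values were seen. Adipoq, which marks most leptin receptor-positive marrow cells in adult mice, lay between 2.25 and 2.50 log2, close to the limit for testing, and Esm1 was below it. Without Mmp14 knockout replicate 1 the number higher was 7 in place of 12, and without wild type replicate 1 the number lower was 2. The call of Cd200 was lost without wild type replicate 1 (limma adjusted p = 0.0739) or replicate 2 (0.0572).

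Lineage markers beside these genes also differed. Of 4 tested osteoblast and osteocyte genes 2 were called lower, and the only one called higher was Dmp1. Alpl, the alkaline phosphatase of osteoblasts, fell by 1.76 log2 with −1.06 at its second probe set. Dmp1, which encodes an osteocyte matrix protein, stood at 5.57 and 4.59 log2 in knockout, against a wild-type mean of 2.12. Both wild-type values lay below the limit for testing, so Dmp1 was tested only through its knockout values. Its call and the size of its rise are uncertain, and no fold is given for it. The cartilage genes Sox9 and Acan moved in opposite directions, by 1.92 and −1.97. Comp, of the same list, fell by 1.21, and Col2a1 and Col9a1 stood at −0.079 and −0.070 without a call. Of the 8 tested cartilage genes 1 was higher, 2 lower and 5 not called. Of 8 tested pericyte and smooth muscle markers 1 was higher, 2 lower and 5 not called (37.5% called, against 11.3% over all tested genes). Rgs5, a pericyte marker, fell from a mean of 3.63 to 2.47 and 2.65 log2. These knockout values lie close to the limit for testing, so no size is given for its fall. Its second, dim probe set gave −0.074. Cnn1 also fell, by 0.73, Mcam rose by 0.69, and Cspg4, Myh11 and Acta2 stood at 0.29, 0.11 and −0.14 without a call. Enpep, a surface peptidase gene used to sort skeletal progenitors, rose by 1.98 log2. The 9 measured adipocyte markers summed, as linear intensity, to 61.0 and 69.8 in the wild-type arrays and to 166 and 155 in the knockout arrays. Pparg made most of that rise, since the other 8 summed to 42.2 and 43.3 against 51.3 and 48.1. Of the 6 tested, 2 rose, Pparg and the lipoprotein lipase gene Lpl (33.3% called, against 11.3% over all tested genes). The part of these markers in the changes of Lepr, Cxcl12 and Vcam1 was not tested.

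The other signals that stroma sends to blood-forming cells moved in both directions. Of 23 tested cytokine, chemokine and growth factor genes 5 were higher, 2 lower and 16 not called, with a median of 0.29 log2. The share called was 30.4%, against 11.3% over all tested genes. A further 12 were too dim to be tested, among them Il6, Csf2 and Csf3. Hgf, the hepatocyte growth factor gene, was at 4.71 and 4.68 log2 in wild type and 6.76 and 6.46 in knockout and rose by 1.92 log2 (SE 0.133, limma adjusted p = 0.00125). Fgf7, the keratinocyte growth factor gene, rose by 1.64 log2. Emb, an adhesion protein reported as a stromal regulator of blood stem cell quiescence, rose by 1.48, with 0.19 at a second, dim probe set. The membrane-bound chemokine gene Cx3cl1 rose by 1.23 log2. Another chemokine gene, Cxcl14, was at 6.73 and 6.42 log2 in wild type and 4.75 and 5.37 in knockout and fell by 1.51 log2 (SE 0.223, limma adjusted p = 0.0119), so chemokine genes did not all move with Cxcl12. Bmp4 fell by 0.70 log2, without a call when wild type replicate 1 (limma adjusted p = 0.0503) or Mmp14 knockout replicate 1 (0.0823) was left out. Pleiotrophin (Ptn) and Lif stood at 0.41 and −0.20 and were not called.

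**Figure D4:**
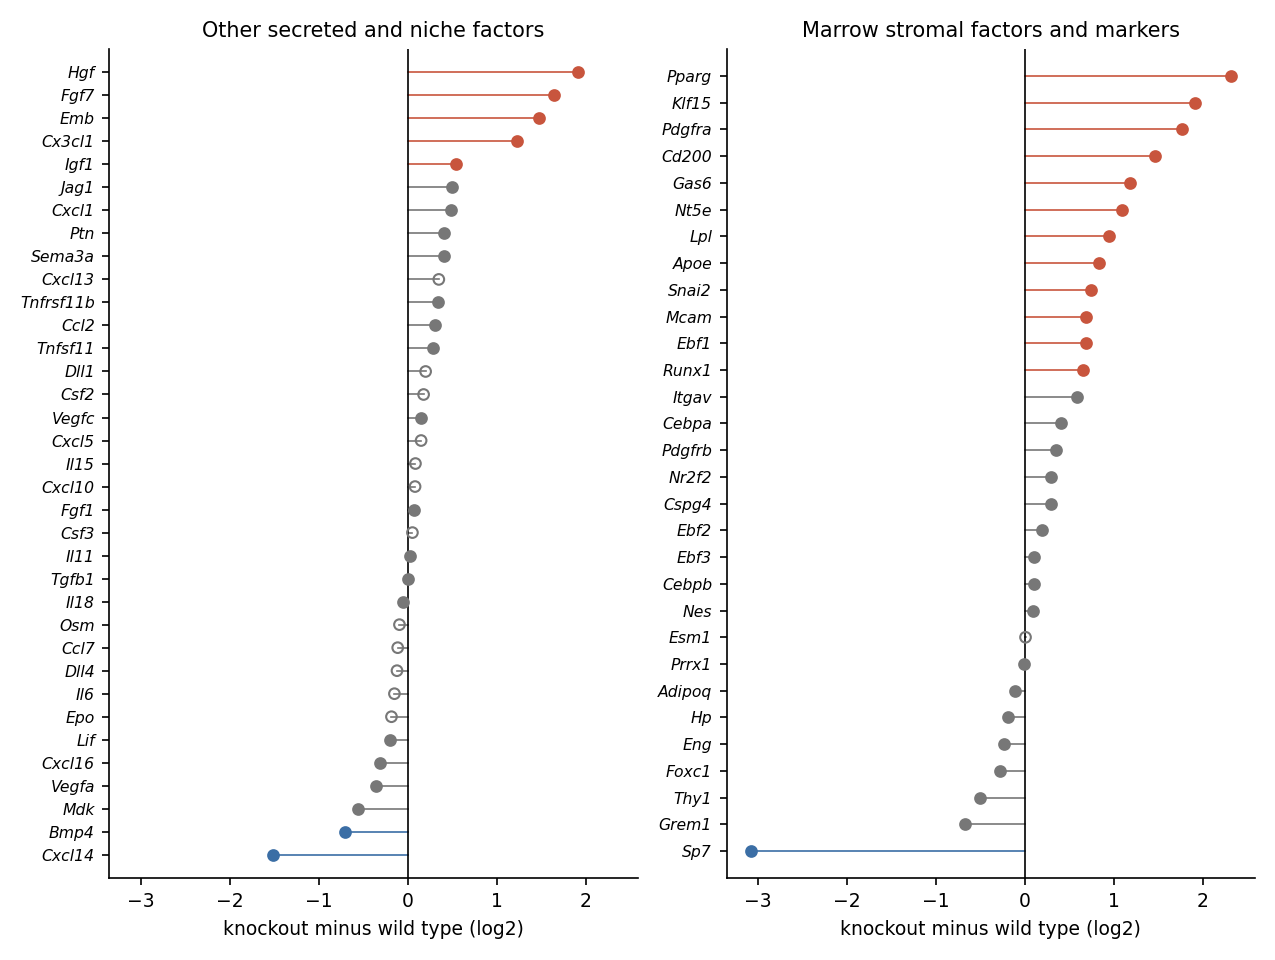
Knockout minus wild type difference on the log2 scale (horizontal axis) of other secreted and niche factors (left) and of marrow stromal transcription factors and markers (right), coloured red for called higher, blue for called lower, grey for not called and open for too dim to be tested. Hgf, Fgf7, Emb and Cx3cl1 lead the left panel and Pparg the right, and Cxcl14 and Sp7 lie lowest.

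Cxcl12 and Vegfa are known targets of hypoxia-inducible factors, so genes that respond to low oxygen were set beside them. Of 15 tested genes 2 were higher, 0 lower and 13 not called, with a median of −0.072 log2. The share called, 13.3%, was close to the 11.3% over all tested genes. Adm, the adrenomedullin gene, rose by 1.90 log2 and the carbonic anhydrase gene Car12 by 1.10, while Vegfa stood at −0.35 and was not called. The call of Car12 did not hold without wild type replicate 2 (limma adjusted p = 0.0599) or Mmp14 knockout replicate 2 (0.0597).

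The genes whose 4-array profile came closest to each called gene were found by Euclidean distance between log2 values centred on each gene's own mean. For Lepr they were Tmem100, Sema4f and Lrrc17, each at a distance of 0.143 log2. Tmem100 and Lrrc17 both fell by 2.39 log2. Sema4f fell to 2.34 and 2.68 log2, at or close to the limit for testing, so no size is given for its fall. For Cxcl12 they were the adhesion genes Cadm4 and L1cam and the semaphorin gene Sema7a, at 0.0806, 0.0834 and 0.0960 log2, with rises of 1.73, 1.84 and 1.86. For Vcam1 they were Gpm6b, the atypical cadherin gene Fat4 and Fgf7, at 0.0619, 0.0974 and 0.105 log2, with rises of 1.64, 1.59 and 1.64. A second Fat4 probe set gave a difference of 0.45. For Csf1 they were Sema4g, Sphk1 and Cdc42ep1, at 0.0045, 0.0151 and 0.0313 log2. Sema4g and Cdc42ep1 each rose by 0.57 log2. Both wild-type values of Sphk1, 2.20 and 2.24 log2, lay below the limit for testing, so it was tested only through its knockout values and its distance and rise are uncertain. None of these 3 was called in any fit with 1 array left out. With 4 arrays, a small distance shows only a like difference between the genotypes and like gaps between replicates.

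**Figure D5:**
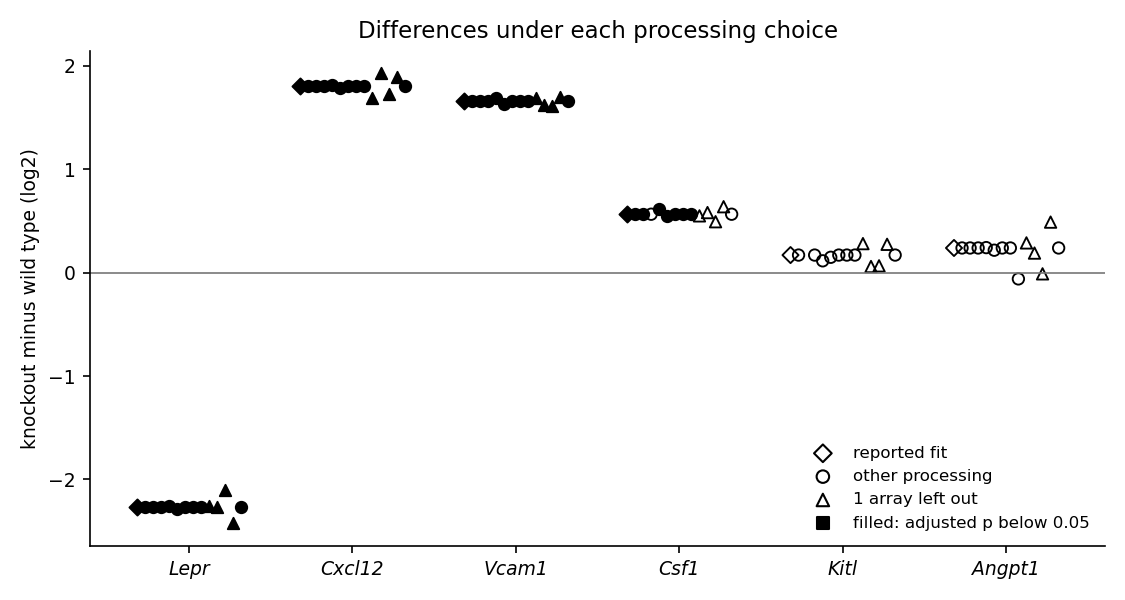
Knockout minus wild type difference on the log2 scale (vertical axis) of the 6 tested genes in the reported fit (diamond), under other processing (circles) and with 1 array left out (triangles), filled where the limma adjusted p was below 0.05. Lepr, Cxcl12 and Vcam1 are filled throughout, Csf1 only in part, and Kitl and Angpt1 nowhere.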

How the data were processed

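Mouse skeletal stem cells from 2 wild-type and 2 Mmp14 knockout samples were measured on 1 array each. Per the labels' protocols, 10 ng of total RNA was amplified and 3.75 µg of cDNA labelled with biotin. The authors deposited log2 intensities, 1 per probe set and array, from 0.43 to 12.2. That these are on a log2 scale follows from their range. limma and oligo are named in the submitters' processing notes. The normalization, the aligner of probes and the build are not given in the sources used here. Array medians lay between 2.32 and 2.37. Arrays have no read depth, and precision is limited by their number.

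Gene names came from the platform annotation. Of the 41345 probe sets 23521 had exactly 1 symbol, 1814 several and 16010 none listed, and all 7 genes matched RefSeq (GRCm38.p6), used for neighbours (protein-coding genes) and promoter sequences. Each gene was represented by its brightest probe set. Knockout minus wild type was fitted in R 4.3.3 with limma 3.58.1 (lmFit, eBayes, two-sided) over 12708 genes, with no block and Benjamini-Hochberg adjustment. Each gene had 2 residual degrees of freedom. The eBayes step added 3.99 prior degrees of freedom from the variances of all tested genes (prior SD 0.122 log2), so p-values and intervals rest on these too. The labels do not say that a replicate number marks a shared animal, day or batch, so the numbers were not used as a block. Over the tested genes, the deviations of wild type replicate 1 and Mmp14 knockout replicate 1 from their group means had a correlation of −0.04. That value cannot show whether the arrays were paired. The fit was tested on simulated data.

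The genes and lists were chosen with earlier results of these data known. The text names the 7 genes, their partners and neighbours, up to 6 called genes of each other pathway list by size of change and up to 4 that were not called, some markers of cell types, and the 3 nearest profiles of each called gene. Few blood markers were bright enough to be tested: 1 of granulocytes, 1 of lymphocytes, and 2 of erythroid cells with megakaryocytes. None of these was called in the reported fit, nor was any of 4 tested Schwann and neural markers. Of those 4, S100b stood at 1.02 log2 (limma adjusted p = 0.0604) and Mbp at 0.45 (limma adjusted p = 0.0501). Ngfr stood at 0.057 and Tubb3 at −0.28. Osteoclast markers had 2 higher of 4 tested (50% called), and chondrocyte markers 1 higher and 2 lower of 8 (37.5%). The 2 osteoclast markers called were Itgb3 (1.34 log2) and Mmp9 (0.76). Acp5 stood at −0.56 and Ctsk at 0.17 without a call, and 5 others were too dim to be tested. Osteoblast markers had 1 higher and 2 lower of 4 (75%), and pericyte markers 1 higher and 2 lower of 8 (37.5%). Over all tested genes the share was 11.3%. The higher osteoblast marker was Dmp1, tested only through its knockout values. Alternatives covered the filter, the block, normalization, the variance prior, array weights, probe sets and each array left out.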

Additional observations from a re-analysis of the deposited data

How the results depend on the processing

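Lepr, Cxcl12 and Vcam1 kept their direction and their call under all 13 alternatives, with differences of −2.42 to −2.10, 1.69 to 1.93 and 1.61 to 1.70 log2. Csf1 kept its direction (0.49 to 0.64 log2) and its call in 7 of 13. Its call was lost with the replicate number as a block (limma adjusted p = 0.0552), on leaving out any 1 array and with every probe set in 1 fit (0.159). That left 3 of these genes called in place of 4. Kitl and Angpt1 were called under none. Angpt1 turned to −0.061 with the mean of its probe sets and to −0.012 without Mmp14 knockout replicate 1. Csf1r turned to −0.014 with quantile normalization and with median centring, and lay between −0.19 and 0.20 with 1 array left out (−0.19 without wild type replicate 2 and −0.080 in the fit without Mmp14 knockout replicate 2). The filter at the 75th percentile of row means (4.76 log2) removed Kitl.

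Of all genes, 1439 were called, 2099 with trended, robust variances, 1644 with the 75th percentile filter, 1057 with the replicate block, 687 to 1131 with 1 array left out, and 218 with every probe set in 1 fit, which tests 41345 features. Of 48 called genes followed through the alternatives, 25 lost their call in that fit, 7 with the replicate block and 8 to 12 with 1 array left out, and none changed sign under any of the 13. Of 22 that were not called, 8 were called under at least 1 alternative: Leprot, Leprotl1, Jak2, Foxc1 and Ptn with trended, robust variances, Leprotl1, Ptn and Vegfa with the 75th percentile filter, Il34 with quantile normalization and Cxcr4 without wild type replicate 1. The replicate block changed no call of Lepr, Cxcl12, Vcam1, Kitl or Angpt1. Genes near 2.34 log2, such as Il7 and Csf1r, are limited by their signal.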
